A study of Rattus norvegicus with 6 samples.

Results

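Wnt ligands, their receptors and their secreted inhibitors were followed in the injured rat spinal cord. The genes were taken from the deposited count table by symbol: Wnt ligands, Frizzled receptors, the co-receptors and receptors Lrp5, Lrp6, Ryk, Ror1 and Ror2, R-spondins, and the secreted inhibitors of the Sfrp and Dkk families with Frzb and Wif1. The rule found 44 of the 33455 genes in the table, made up of 15 ligands, 10 Frizzled receptors, 5 other receptors, 4 R-spondins and 10 inhibitors. Wnt3, Wnt3a, Wnt9a and Wnt9b were not analysed here.

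Wnt proteins are secreted lipid-modified signals. A Wnt that binds a Frizzled receptor together with Lrp5 or Lrp6 keeps beta-catenin from being degraded, so that beta-catenin can switch on TCF/LEF target genes, while Ryk, Ror1 and Ror2 serve branches of the pathway that do not need beta-catenin. Sfrp proteins, Frzb and Wif1 bind Wnts outside the cell, Dkk1 blocks Lrp5 and Lrp6, and R-spondins raise signalling by keeping Frizzled receptors at the cell surface. In the spinal cord the family is known for patterning the embryonic neural tube, guiding axons, forming the blood-brain barrier and taking part in the response to injury.

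RNA came from the lesion centre of wild-type rats (Rattus norvegicus) with a contusion at T9, in 2 groups of 3 libraries: Gel+US, with a gel and ultrasound, and Piezo Gel+US, with the piezoelectric gel and ultrasound. Piezoelectric materials give electrical charge under mechanical strain. All 6 libraries came from contused, gel-treated, ultrasound-treated cord (100 Hz, 1.0 W/cm2, 10 min a day for 4 weeks), so the comparison is between the gels, and uninjured or untreated cord was not analysed here. The labels call the libraries of a group biological replicates and do not name strain, age, sex or any pooling of tissue.

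Library totals ran from 17212653 to 21436820 counts. Neuron, astrocyte and oligodendrocyte markers had counts in every library for 8 of 8, 7 of 7 and 8 of 8 matched genes (the astrocyte marker Gfap was not analysed here), and so had 8 of 8 Schwann cell and 8 of 8 fibroblast markers. The marker sums differed between libraries. In Piezo Gel+US replicate 2 the Schwann cell markers summed to 72518 CPM (counts scaled to library size), against 4958 to 13836 CPM in the other 5 libraries. The fibroblast markers summed to 6813 and 6096 CPM in the libraries numbered 2 (Gel+US first), against 731 to 1438 CPM elsewhere, and the neuron markers were lowest in the same pair (1614 and 1253 CPM, against 2675 to 9118 CPM). In tissue of this kind, fewer cells of a type and less RNA per cell cannot be told apart.

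Of the 44 genes, 38 passed the filter on low counts and were tested. None was called: by edgeR's quasi-likelihood test with Benjamini-Hochberg adjustment 0 of 38 members and 0 of 17066 genes (0.0%) had an adjusted p below 0.05, and the adjusted p of each member was at least 0.994. At an unadjusted p below 0.05 there was 1 member on the higher side, the inhibitor Sfrp5 (1.38% of all genes tested), and 1 on the lower side, the R-spondin Rspo2 (0.721% of all genes). Only for these 2 did the groups not overlap, 1 of 38 members on the higher side against 4.08% of all genes and 1 of 38 on the lower side against 2.73%. DESeq2 called 0 members and put the same number, 2, below an unadjusted 0.05 (2.81% of its genes), giving no p for Sfrp2 and Sfrp4. Limma-voom with quality weights called 0 and put 7 there (14.1% of all genes). That fit leaned on Gel+US replicate 1, with a weight of 7.74 against 0.210 to 2.41 for the other libraries. Over the members tested, 15 lay higher and 23 lower in Piezo Gel+US with a median log2 fold change of -0.19, where all genes tested had 52.9% lower and a median of -0.021. Without Gel+US replicate 2 the members' median was 0.15, so its sign rested on that library.

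**Figure D1:**
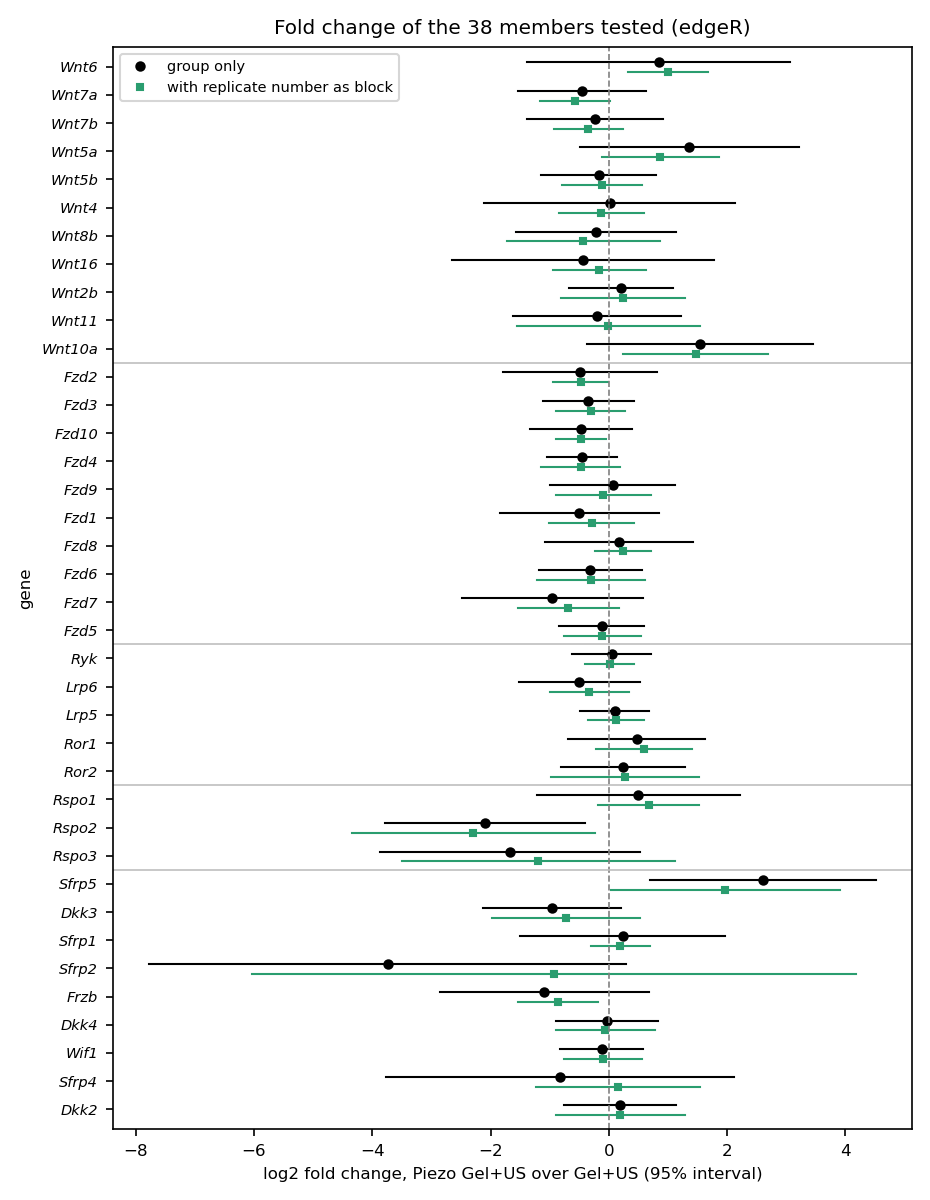
Log2 fold change of Piezo Gel+US over Gel+US for the 38 members tested, with the 95% interval of the edgeR fit, from group alone (black circles) and with the replicate number as a block (green squares). In the fit by group alone the intervals of Sfrp5 and Rspo2 exclude 0 and those of the other 36 members do not.

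Replicate numbers occur in both groups, and same-numbered libraries deviated together over all genes (correlations of 0.251 to 0.296). Gel+US replicate 1 and Piezo Gel+US replicate 3, of unlike number, did so almost as much (0.198). The labels do not say what a number shares, but a fit with the number as a block was also read. It called 0 members, but put 7 at an unadjusted p below 0.05 instead of 2, where 5.78% of all genes tested lay there. These were Sfrp5, Wnt6 and Wnt10a on the higher side and Rspo2, Fzd2, Fzd10 and Frzb on the lower side, each with an adjusted p of 0.855. In all 3 pairs of equal number 7 members were higher in Piezo Gel+US (18.4%, against 14.3% of all genes) and 9 were lower (23.7%, against 14.7%).

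The secreted inhibitors held the member of largest level and of largest spread. Sfrp5, a soluble Frizzled-related protein that binds Wnts, measured 84.8, 75.6 and 113 CPM in Gel+US replicates 1 to 3 and 119.7, 1206 and 336 CPM in Piezo Gel+US replicates 1 to 3. All 3 Piezo Gel+US libraries were above all 3 Gel+US libraries, but replicate 1 by only a small step. The mean was 91.1 ± 19.4 CPM (SD) in Gel+US and 554 ± 575 CPM in Piezo Gel+US, and edgeR gave a log2 fold change of 2.60 (95% interval 0.70 to 4.51, unadjusted p = 0.0147, adjusted p = 0.994). Without Piezo Gel+US replicate 2 the log2 fold change was 1.32 (0.22 to 2.41), and with both replicate 2 libraries left out it was 1.20 (-0.12 to 2.53). The Schwann cell markers were likewise highest in Piezo Gel+US replicate 2 and second in replicate 3: their sums were 4958, 7633 and 7844 CPM in Gel+US and 7840.0, 72518 and 13836 CPM in Piezo Gel+US, and all 8 markers had their highest value in Piezo Gel+US replicate 2. The part of Schwann cell RNA in the Sfrp5 values was not tested.

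Dkk3, a divergent Dickkopf protein found in many tissues and placed in this role by its family name, came next by level. It measured 66.0, 181 and 49.1 CPM in Gel+US and 55.6, 41.2 and 54.4 CPM in Piezo Gel+US, so that Gel+US replicate 2 stood alone above the rest. The log2 fold change of -0.97 (-2.14 to 0.20) was -0.20 without that library. Sfrp1 measured 10.3, 32.5 and 8.57 CPM in Gel+US and 9.50, 39.5 and 11.4 CPM in Piezo Gel+US, high in both replicate 2 libraries and otherwise flat (log2 fold change 0.24, -1.50 to 1.97). Sfrp2, a product of fibroblasts among other cells, had 1423 of its counts in Gel+US replicate 2 and 15 to 58 in each other library, or 79.0 CPM against 0.755 to 3.00 CPM. Its log2 fold change of -3.74 (-7.77 to 0.29) was 0.56 without that library. Sfrp4 and Frzb had 28.1 and 38.1 CPM in Gel+US replicate 2, their highest values, and came second in the Piezo Gel+US library of the same number (11.5 and 15.1 CPM). The fibroblast marker sum and the cartilage and bone marker sum were likewise highest in Gel+US replicate 2, at 6813 and 662 CPM. In Piezo Gel+US replicate 2 these sums came second, at 6096 and 195 CPM, but Sfrp2 had its lowest value there (0.755 CPM). The part of these cell types in the values was not tested. Frzb, which binds Wnts as Sfrp proteins do, was lower in Piezo Gel+US in all 3 pairs of equal number, and the block fit gave -0.86 (-1.53 to -0.18).

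The remaining inhibitors were low and even. Wif1, which binds Wnts through its own WIF domain, ran from 5.26 to 8.83 CPM over the 6 libraries, Dkk4 from 2.74 to 4.73 CPM and Dkk2 from 1.45 to 2.95 CPM. Their groups overlapped, and their log2 fold changes were -0.12, -0.039 and 0.18. Dkk1, the best known Lrp5/Lrp6 blocker, had 14, 1 and 1 counts in Gel+US and 6, 13 and 0 in Piezo Gel+US and was below the filter. Across the role 3 of 9 members tested lay higher and 6 lower, with a median of -0.12, but without Gel+US replicate 2, 7 of these 9 lay higher with a median of 0.40.

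Levels of different genes were compared per kilobase of the gene length in the table. On this scale (CPM per kb) Sfrp5 made up 55.2%, 23.1% and 68.4% of the summed inhibitor level in Gel+US and 67.3%, 93.3% and 85.2% in Piezo Gel+US. It was the leading inhibitor in 5 of 6 libraries, the exception being Gel+US replicate 2, where Dkk3 held 30.2% and Sfrp2 22.1%. The summed inhibitor level stood at 1.78, 2.58 and 2.49 times the summed ligand level in Gel+US and at 2.20, 7.77 and 5.00 times in Piezo Gel+US. Leaving Sfrp5 out of the sum, these ratios were 0.797, 1.98 and 0.787 in Gel+US and 0.717, 0.519 and 0.742 in Piezo Gel+US, so the order of the groups turned with that 1 gene. The sum without Sfrp5 still holds Dkk3, which is in the role by family name. Dkk3 made up 23.6%, 30.2% and 16.3% of the full inhibitor level in Gel+US and 17.1%, 1.75% and 7.55% in Piezo Gel+US. Ratios without Dkk3 were not computed.

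**Figure D2:**
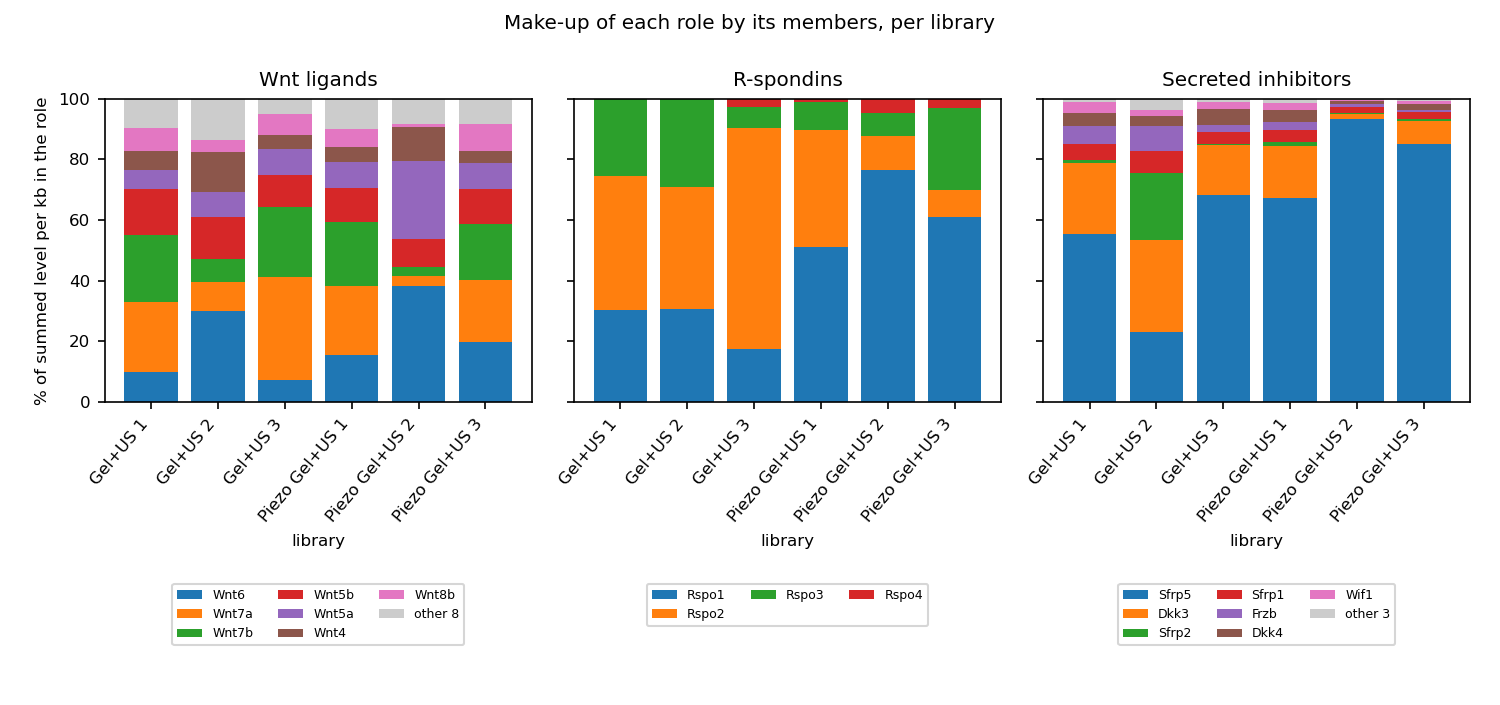
Share of each member in the summed level per kb (CPM per kb) of its role, in percent, for ligands, R-spondins and secreted inhibitors in each of the 6 libraries. Sfrp5 fills 93.3% of the inhibitor bar in Piezo Gel+US replicate 2, and Rspo1 takes 51.1% to 76.5% of the R-spondin bars in Piezo Gel+US against 17.6% to 30.7% in Gel+US.

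Among the R-spondins 1 of 3 members tested lay higher and 2 lower. Rspo2, which binds Lgr receptors and keeps Frizzled receptors from being removed, measured 5.56, 18.0 and 11.9 CPM in Gel+US and 5.02, 2.41 and 0.828 CPM in Piezo Gel+US. The groups did not overlap, although the lowest Gel+US library and the highest Piezo Gel+US library, both replicate 1, were close. Its mean was 11.8 ± 6.22 CPM in Gel+US and 2.75 ± 2.11 CPM in Piezo Gel+US (edgeR log2 fold change -2.10, 95% interval -3.79 to -0.41, unadjusted p = 0.0220, adjusted p = 0.994). The value stayed between -2.89 and -1.67 when any 1 library was left out. Its interval included 0 without Gel+US replicate 2 (-3.48 to 0.14) and without Piezo Gel+US replicate 2 (-4.17 to 0.12). The value was -1.58 (-3.78 to 0.62) with both replicate 2 libraries left out. Behind it were 111, 324 and 237 counts in Gel+US and 94, 48 and 16 in Piezo Gel+US. The ependymal marker sums, 43.3, 75.6 and 42.2 CPM in Gel+US and 45.9, 36.0 and 34.1 CPM in Piezo Gel+US, had their highest and lowest values in the same libraries as Rspo2. Of its 8 genes 6 had counts in every library, Tmem212 and Pifo were at 0 in at least 1, and the part of ependymal RNA was not tested.

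Rspo1 went the other way by mean, with 1.80, 6.50 and 1.35 CPM in Gel+US and 3.15, 7.70 and 2.74 CPM in Piezo Gel+US. It was higher in Piezo Gel+US in all 3 pairs of equal number, but the groups overlapped and the log2 fold change of 0.50 (-1.22 to 2.21) was -0.14 with Piezo Gel+US replicate 2 left out and 1.50 (0.069 to 2.94) when Gel+US replicate 2 was. Rspo3 had 14, 52 and 5 counts in Gel+US and 5, 7 and 11 in Piezo Gel+US. In CPM these were 0.701, 2.89 and 0.251 and 0.267, 0.352 and 0.569, with a log2 fold change of -1.67 (-3.86 to 0.53) that was -0.27 without Gel+US replicate 2. Rspo4 had 0 to 7 counts per library and was not tested. Per kb, Rspo2 held 44.3%, 40.1% and 72.8% of the summed R-spondin level in Gel+US and 38.4%, 11.3% and 8.70% in Piezo Gel+US, while Rspo1 held 30.4%, 30.7% and 17.6% in Gel+US and 51.1%, 76.5% and 61.0% in Piezo Gel+US. On this scale the leading R-spondin was Rspo2 in all 3 Gel+US libraries and Rspo1 in all 3 Piezo Gel+US libraries. In Piezo Gel+US replicate 1 this rested on gene length (1815 bases for Rspo1, 3844 for Rspo2). In CPM Rspo2 was the higher there (5.02 against 3.15). Shares within a role depend on one another, so this order is not a result apart from the Rspo2 values.

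**Figure D3:**
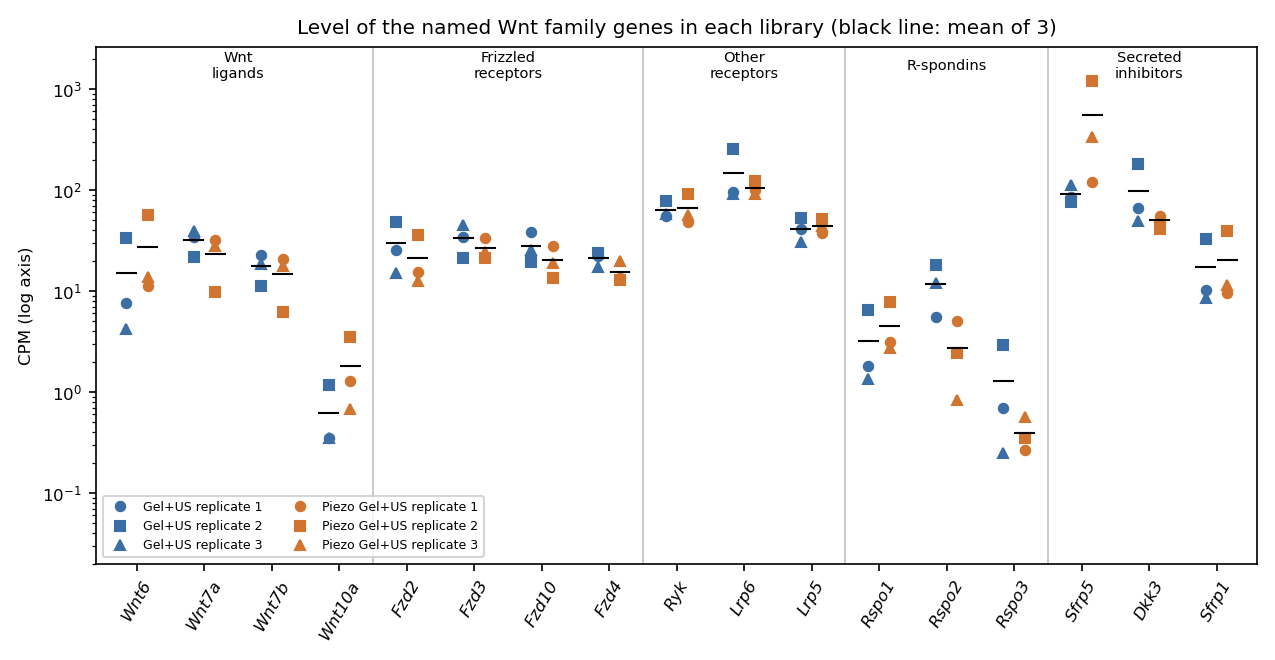
Level in CPM (log axis) of the 17 members described in most detail, in each of 3 Gel+US (blue) and 3 Piezo Gel+US (orange) libraries, with marker shape for the replicate number and a black line for the group mean. Groups are separate for Sfrp5 and Rspo2 only, and the replicate 2 libraries (squares) are the highest pair for Wnt6, Fzd2, Ryk, Lrp6, Lrp5, Rspo1 and Sfrp1.

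Among the ligands, 11 of 15 were tested, 5 higher and 6 lower, with a median log2 fold change of -0.17, but without Gel+US replicate 2, 8 of these 11 lay higher with a median of 0.43. Per kb of gene length Wnt6, Wnt7a and Wnt7b had the highest mean levels over the 6 libraries (12.8, 8.58 and 7.26 CPM per kb), followed by Wnt5a and Wnt5b (7.06 and 6.40). The order was not stable between libraries. Wnt7a and Wnt7b, ligands of neural progenitors and neurons that also act on the vessels of the central nervous system, together made up 45.1%, 17.2% and 57.2% of the summed ligand level per kb in Gel+US and 44.0%, 6.52% and 39.0% in Piezo Gel+US. Wnt5a and Wnt6 together made up 16.3%, 38.3% and 15.7% in Gel+US and 24.1%, 63.7% and 28.4% in Piezo Gel+US. The replicate 2 libraries of both groups therefore carried less Wnt7 and more Wnt5a and Wnt6 than the other 4.

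Wnt6 measured 7.52, 33.7 and 4.21 CPM in Gel+US and 11.1, 56.3 and 13.8 CPM in Piezo Gel+US. It was higher in Piezo Gel+US in every pair of equal number, and Gel+US replicate 2 alone kept the groups from separating. By group alone the log2 fold change was 0.84 (-1.38 to 3.06). The block fit gave 0.99 (0.32 to 1.67, unadjusted p = 0.0116, adjusted p = 0.855), and with both replicate 2 libraries left out it was 1.09 (0.27 to 1.90). In that last fit Wnt6 was the only member below an unadjusted 0.05, a level reached by 5.31% of its genes. Without Piezo Gel+US replicate 2 alone it was -0.29. The fibroblast marker sums of 943, 6813 and 731 CPM in Gel+US and 1169, 6096 and 1438 CPM in Piezo Gel+US had nearly the same order as Wnt6, differing only in which replicate 2 library came first, and their part was not tested.

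Wnt10a lies next to Wnt6 on the same strand, with no other gene of the table in the 6680 bases between them. Wnt6 spans 148194880 to 148208083 and Wnt10a 148214764 to 148227684 by the authors' table. Its build is not named there or in the labels, and these positions differ from those of the GRCr8 windows printed below. Wnt10a had few counts, 7, 21 and 7 counts in Gel+US and 24, 69 and 13 in Piezo Gel+US. These were 0.351, 1.17 and 0.351 CPM in Gel+US and 1.28, 3.47 and 0.673 CPM in Piezo Gel+US. Like Wnt6 it was highest in Piezo Gel+US replicate 2 and higher in Piezo Gel+US in all 3 pairs, with a log2 fold change of 1.54 (-0.37 to 3.45) by group and 1.47 (0.24 to 2.69) in the block fit. Without Piezo Gel+US replicate 2 it was 0.64. Wnt10b and Wnt1 lie 10435 bases apart on opposite strands, with 1 other gene of the table between them, and had 2 to 10 and 0 to 11 counts per library, below the filter.

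Wnt5a, a ligand known for signalling through Ror1, Ror2 and Ryk, measured 8.37, 16.1 and 8.47 CPM in Gel+US and 10.6, 63.8 and 10.2 CPM in Piezo Gel+US. Piezo Gel+US replicate 2 stood alone, and the log2 fold change of 1.36 (-0.49 to 3.21) was -0.087 without it. Its close relative Wnt5b showed no such step, with 9.82, 13.3 and 5.21 CPM in Gel+US and 6.78, 11.5 and 6.83 CPM in Piezo Gel+US (log2 fold change -0.17, -1.14 to 0.80). Per kb the ratio of Wnt7a to Wnt5a was 3.58, 1.16 and 3.99 in Gel+US and 2.61, 0.134 and 2.36 in Piezo Gel+US.

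Wnt7a measured 34.5, 21.5 and 38.9 CPM in Gel+US and 31.8, 9.86 and 27.8 CPM in Piezo Gel+US, and Wnt7b 22.8, 11.3 and 18.6 CPM and 20.8, 6.19 and 17.7 CPM. Both were lower in Piezo Gel+US in all 3 pairs and lowest in Piezo Gel+US replicate 2. The log2 fold changes were -0.45 (-1.54 to 0.63) and -0.24 (-1.39 to 0.91), and without Piezo Gel+US replicate 2 they were -0.094 and 0.12. The neuron marker sums were 4206, 1614 and 9118 CPM in Gel+US and 4396, 1253 and 2675 CPM in Piezo Gel+US, lowest in the same 2 libraries as Wnt7a and Wnt7b. The astrocyte markers were lowest there too (1911 and 831 CPM, against 2234 to 3103 CPM), and the part of either cell type was not tested.

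Wnt4, which acts in kidney and nerve-muscle development, and Wnt16, a ligand of bone and joint tissue, were again highest in the replicate 2 libraries. Wnt4 measured 11.7 and 13.0 CPM there and 2.12 to 3.76 CPM elsewhere, and Wnt16 measured 21.2 and 13.9 CPM there and 1.80 to 6.76 CPM elsewhere. Wnt8b, Wnt2b and Wnt11 stayed at or below 5.02 CPM in every library. Of the ligands below the filter, Wnt2 had 1 to 11 counts per library and Wnt8a a single count in all 6.

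The Frizzled receptors, the membrane-spanning receptors of Wnts, were all detected in every library, and 8 of 10 lay lower in Piezo Gel+US, with a median log2 fold change of -0.40. Leaving out Gel+US replicate 2 gave 5 of 10 lower and a median of -0.013. None was called and no Frizzled gene had groups that did not overlap. Fzd2, Fzd3, Fzd5, Fzd7 and Fzd10 were lower in Piezo Gel+US in all 3 pairs of equal number, or 5 of 10 Frizzled genes against 14.7% of all genes. Per kb the summed Frizzled level was 57.6, 72.0 and 47.9 in Gel+US and 46.6, 48.2 and 43.2 in Piezo Gel+US, so that a single Gel+US library, replicate 3, lay below the highest Piezo Gel+US library.

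Fzd2 had the highest mean of the role per kb (11.8 CPM per kb over the 6 libraries), but led only in the replicate 2 libraries, with 31.0% and 34.1% of the summed Frizzled level. Fzd10 led in both replicate 1 libraries, Fzd3 in Gel+US replicate 3 and Fzd9 in Piezo Gel+US replicate 3. Fzd2 measured 25.7, 48.2 and 15.1 CPM in Gel+US and 15.4, 35.6 and 12.6 CPM in Piezo Gel+US (log2 fold change -0.48, -1.78 to 0.82), and the block fit gave -0.48 (-0.94 to -0.015). Without Gel+US replicate 2 it was 0.046. Fzd10 measured 38.5, 19.2 and 25.7 CPM in Gel+US and 28.1, 13.3 and 18.8 CPM in Piezo Gel+US (log2 fold change -0.47, -1.34 to 0.40), and -0.48 (-0.90 to -0.056) in the block fit. Within each group replicate 2 was the lowest for Fzd10 and the highest for Fzd2, yet every pair of equal number had the lower value in Piezo Gel+US. Without Gel+US replicate 1 the value for Fzd10 was -0.16.

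Fzd3, a receptor needed for axon tract formation, measured 33.9, 21.2 and 45.5 CPM in Gel+US and 33.5, 21.1 and 24.4 CPM in Piezo Gel+US. Pairs 1 and 2 were nearly level, and the log2 fold change of -0.35 (-1.12 to 0.42) was -0.070 without Gel+US replicate 3. Fzd4, the receptor of the vascular ligand norrin as well as of Wnts, had the lowest unadjusted p of the role (0.107, edgeR adjusted p = 0.994), with 22.2, 23.7 and 17.3 CPM in Gel+US and 13.3, 12.8 and 19.9 CPM in Piezo Gel+US. Its log2 fold change was -0.46 (-1.05 to 0.13) and lay between -0.69 and -0.35 when any 1 library was left out. The endothelial marker sums were 603 to 909 CPM in Gel+US and 751 to 919.6 CPM in Piezo Gel+US and did not have the order of Fzd4.

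Fzd1, Fzd7 and Fzd8 were highest in both replicate 2 libraries, Fzd7 reaching 31.1 CPM in Gel+US replicate 2 against 4.81 to 10.5 CPM in the other 5 libraries. Fzd9, a receptor of the nervous system, went the other way, lowest in Piezo Gel+US replicate 2 at 9.10 CPM where the other 5 libraries had 18.5 to 31.9 CPM. Fzd5 and Fzd6 were low, at 4.48 to 7.52 and 5.34 to 12.6 CPM.

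The other receptors take Wnt signals beside or together with the Frizzled proteins. Ryk, a kinase-like Wnt receptor of growing axons, had the highest level per kb of these 5 (23.4 CPM per kb over the 6 libraries), with 55.0, 76.9 and 58.3 CPM in Gel+US and 48.5, 91.4 and 57.0 CPM in Piezo Gel+US. The means of 63.4 ± 11.8 and 65.6 ± 22.7 CPM differed by less than the spread within groups (log2 fold change 0.050, -0.62 to 0.72). Lrp5 measured 40.6, 52.7 and 30.7 CPM in Gel+US and 37.6, 51.3 and 43.7 CPM in Piezo Gel+US (log2 fold change 0.096, -0.48 to 0.67). Lrp6 measured 95.9, 256 and 90.1 CPM in Gel+US and 98.8, 121 and 91.7 CPM in Piezo Gel+US, where Gel+US replicate 2 stood alone. Its log2 fold change of -0.50 (-1.52 to 0.52) was 0.15 without that library. Ror1 was higher in Piezo Gel+US in all 3 pairs (4.51, 9.05 and 2.71 CPM in Gel+US and 5.76, 10.1 and 6.67 CPM in Piezo Gel+US, log2 fold change 0.47, -0.69 to 1.63). Ror2 ran from 1.83 to 5.38 CPM. In this role 4 of 5 members lay higher in Piezo Gel+US, with a median of 0.096, but without Piezo Gel+US replicate 2, 1 of 5 did (median -0.036), and without Gel+US replicate 3, 2 of 5 did (median -0.022).

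**Figure D4:**
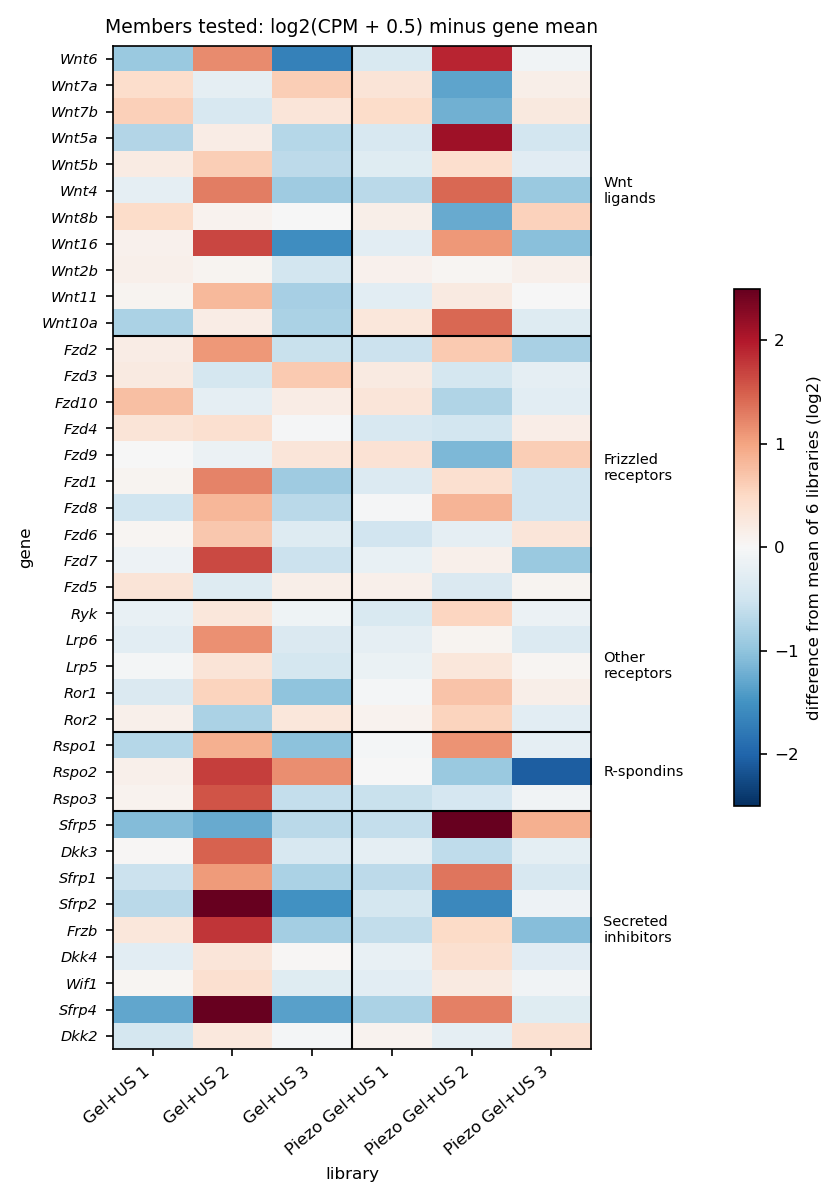
Log2(CPM + 0.5) of the 38 members tested, minus each gene's mean over the 6 libraries, with genes in rows by role, libraries in columns and colours limited to 2.5 on either side of 0. The columns of Gel+US replicate 2 and Piezo Gel+US replicate 2 are red for most ligands, inhibitors and other receptors, and blue for Wnt7a, Wnt7b, Fzd3, Fzd5, Fzd9 and Fzd10.

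Across the roles the members varied more between libraries than genes at large. The highest library exceeded the lowest by a median of 3.88 times over the 38 members and 2.04 times over all genes tested, from 1.68 times for Wif1 and Fzd5 to 105 times for Sfrp2. The number 2 libraries accounted for most of the highest values. Gel+US replicate 2 held the highest value of 17 of 38 members (44.7%, against 19.0% of all genes) and Piezo Gel+US replicate 2 that of 12 (31.6%, against 29.2%). For 20 of 38 members (52.6%, against 17.8% of all genes) these were the 2 highest libraries. They were Wnt4, Wnt5a, Wnt5b, Wnt6, Wnt11, Wnt16, Fzd1, Fzd2, Fzd7, Fzd8, Lrp5, Lrp6, Ryk, Ror1, Rspo1, Sfrp1, Sfrp4, Frzb, Wif1 and Dkk4. For 5 members (13.2%, against 19.5% of all genes) they were the 2 lowest: Wnt7a, Wnt7b, Fzd3, Fzd5 and Fzd9. The fibroblast marker sums were highest and the neuron and astrocyte marker sums lowest in these 2 libraries. Of the 8 fibroblast markers, 3 had their highest value in Gel+US replicate 2. The part of cell make-up in this split was not tested.

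**Figure D5:**
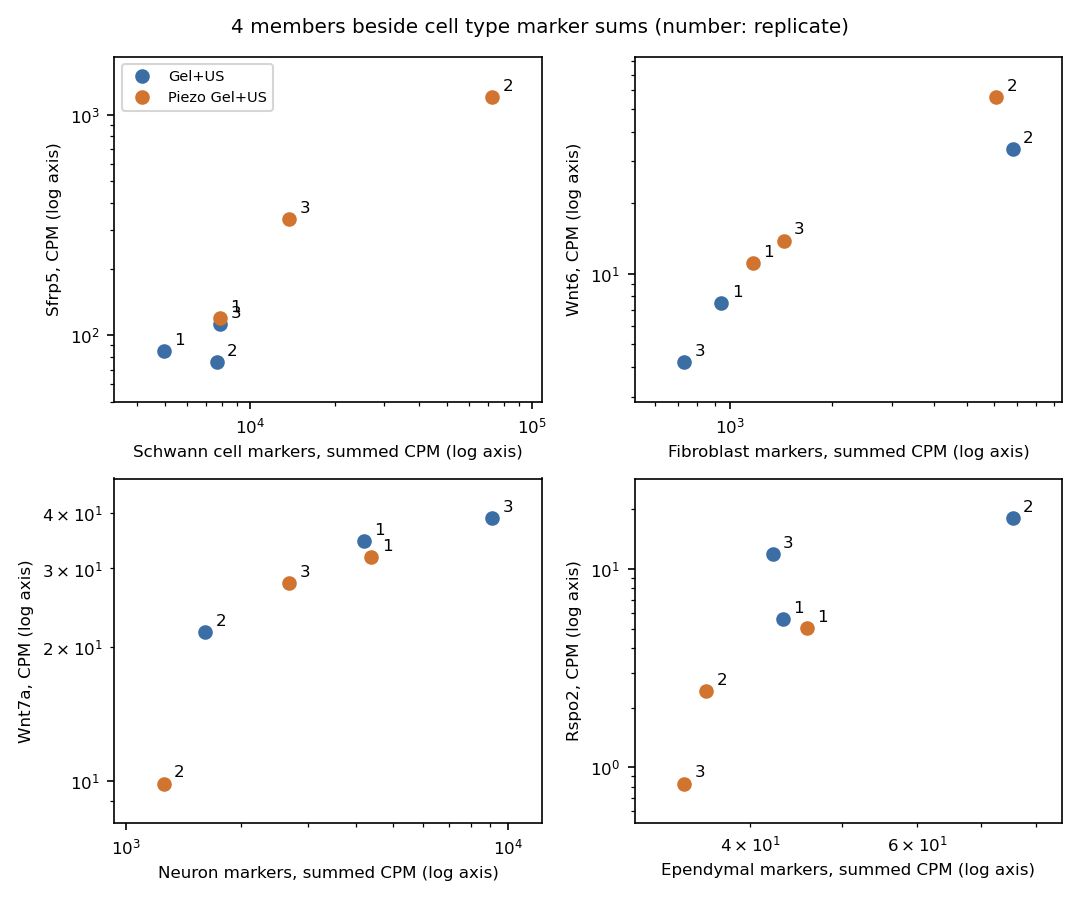
CPM of Sfrp5, Wnt6, Wnt7a and Rspo2 in each library against the summed CPM of the Schwann cell, fibroblast, neuron and ependymal markers (both axes log), with the replicate number beside each point, blue for Gel+US and orange for Piezo Gel+US. Each panel pairs a member with a marker list named beside it in the text. Piezo Gel+US replicate 2 is highest for Sfrp5 (1206 CPM) and Schwann cell markers (72518 CPM), and lowest for Wnt7a (9.86 CPM) and neuron markers (1253 CPM).

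Promoter windows are shown for Sfrp5, Wnt6 and Wnt10a, the 3 members on the higher side with an unadjusted p below 0.05 in the block fit (0 called), which were all highest in Piezo Gel+US replicate 2. Of the 44 members, 29 had a window in the RefSeq promoter table (GRCr8), and the 250 bases before the start were searched on both strands for TCF/LEF letters (CTTTGAT or CTTTGAA), SOX letters (ACAAAG or ACAATG) and EGR letters (GCGTGGGCG or GCGGGGGCG). SOX and EGR factors, among others, act in Schwann cells. The SOX letters ACAAAG share the run CTTTG with the TCF/LEF letters when read on the other strand. Capitals mark the matches, and each sequence reads 5′ to 3′ along the gene.
Sfrp5, chr1:250960513-250960762, minus strand: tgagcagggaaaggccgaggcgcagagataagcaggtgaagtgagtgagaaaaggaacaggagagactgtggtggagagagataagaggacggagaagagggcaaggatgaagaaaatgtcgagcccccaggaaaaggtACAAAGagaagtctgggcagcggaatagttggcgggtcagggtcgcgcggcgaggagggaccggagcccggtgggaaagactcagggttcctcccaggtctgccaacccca
Wnt6, chr9:83778302-83778551, plus strand: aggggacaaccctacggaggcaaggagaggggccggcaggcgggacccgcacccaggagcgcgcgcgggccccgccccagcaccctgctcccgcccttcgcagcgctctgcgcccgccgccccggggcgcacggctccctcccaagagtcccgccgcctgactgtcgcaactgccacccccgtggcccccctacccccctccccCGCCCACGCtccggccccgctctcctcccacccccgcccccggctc
Wnt10a, chr9:83798344-83798593, plus strand: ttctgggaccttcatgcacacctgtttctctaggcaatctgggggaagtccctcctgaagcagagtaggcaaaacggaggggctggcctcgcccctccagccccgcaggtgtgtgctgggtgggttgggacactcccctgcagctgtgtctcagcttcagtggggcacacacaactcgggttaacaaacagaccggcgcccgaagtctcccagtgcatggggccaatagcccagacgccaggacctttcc

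The Sfrp5 window held 1 SOX match, starting 111 bases before the gene's start, and the Wnt6 window 1 EGR match on the other strand, starting 46 bases before it. The Wnt10a window held none of the letters searched. Of the members on the lower side with an unadjusted p below 0.05 in the block fit, Rspo2 and Fzd2 had no window. The windows of Frzb (2 SOX matches) and Fzd10 (no match), also on that side, are not shown. Over the family, SOX letters were in 5 of 29 windows (17.2%, against 25.3% of 33469 promoters), TCF/LEF letters in 2 of 29, Dkk1 and Wnt8a (6.90%, against 7.58%), and EGR letters in 4 of 29, Wif1, Wnt2, Wnt6 and Wnt7a (13.8%, against 2.85%). The members' windows were richer in G and C, with a median of 63.6% against 51.2% for all promoters. Of the EGR holders, Wnt6 was highest and Wnt7a lowest in Piezo Gel+US replicate 2. Wif1 ran from 5.26 to 8.83 CPM over the libraries, and Wnt2 was below the filter. The part of these letters in the levels was not tested.

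The rest of the pathway was read from 4 lists, some genes of which stand in more than 1 list. Of 23 tested genes for Wnt secretion and for regulation at the receptor, 0 were called, 11 lay higher and 12 lower (median -0.034). Wls, the carrier that every secreted Wnt needs to leave the cell, measured 169, 202 and 181 CPM in Gel+US and 147, 100.1 and 129.5 CPM in Piezo Gel+US. Its groups did not overlap, and the log2 fold change was -0.55 (-1.03 to -0.077, edgeR unadjusted p = 0.0288, adjusted p = 0.994). Sostdc1, a secreted BMP and Wnt antagonist, measured 19.6, 46.8 and 11.3 CPM in Gel+US and 35.2, 281 and 25.7 CPM in Piezo Gel+US, again with its highest value in Piezo Gel+US replicate 2 (log2 fold change 2.14, -0.31 to 4.58).

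Of 25 genes that carry the signal to beta-catenin and TCF/LEF, 0 were called, 16 lay higher and 9 lower (median 0.056). They varied far less than the ligands and inhibitors, with a median of 1.72 times between highest and lowest library. Bcl9, a co-activator of beta-catenin, had groups that did not overlap (43.8, 43.4 and 34.5 CPM in Gel+US and 45.7, 57.3 and 49.1 CPM in Piezo Gel+US, log2 fold change 0.32, -0.10 to 0.75). Tle3, a co-repressor of TCF/LEF factors, had a log2 fold change of 0.31 (-0.25 to 0.87).

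Of 14 feedback and common target genes of the pathway 0 were called, 10 lay higher and 4 lower (median 0.18). Of these 14, 8 were highest in Piezo Gel+US replicate 2 (57.1%, against 29.2% of all genes). In the secretion, transduction and polarity lists that share was 43.5%, 44% and 45%, so it was raised in every list. Axin2, a widely used readout of beta-catenin activity, measured 19.2, 24.7 and 14.8 CPM in Gel+US and 24.5, 28.1 and 22.7 CPM in Piezo Gel+US, with 1 Gel+US library reaching into the Piezo Gel+US range (log2 fold change 0.36, -0.20 to 0.91). Lgr5, an R-spondin receptor and target gene, measured 9.17, 9.33 and 13.2 CPM in Gel+US and 10.6, 29.3 and 14.1 CPM in Piezo Gel+US (log2 fold change 0.77, -0.21 to 1.75).

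Of 20 genes of the planar polarity and calcium branches 0 were called, 13 lay higher and 7 lower (median 0.044). Scrib, a polarity scaffold, measured 174, 171 and 129 CPM in Gel+US and 191, 249 and 203 CPM in Piezo Gel+US with no overlap (log2 fold change 0.44, -0.044 to 0.92). Invs, which acts between the branches of the pathway, measured 17.5, 15.2 and 11.9 CPM in Gel+US and 18.2, 18.8 and 20.8 CPM in Piezo Gel+US, also with no overlap (log2 fold change 0.37, -0.12 to 0.87). Prickle1, a core polarity protein chosen after its values were seen, had no overlap on the lower side (42.2, 42.1 and 46.2 CPM in Gel+US and 41.4, 29.4 and 36.4 CPM in Piezo Gel+US, log2 fold change -0.29, -0.72 to 0.15). So 2 of 20 genes had no overlap on the higher side, against 4.08% of all genes, and 1 of 20 on the lower side, against 2.73%.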

How the data were processed

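The counts that the authors deposited are whole numbers per gene, not normalised, for 6 libraries prepared with strand marking (dUTP), and come with gene names, positions and lengths. The submitters' processing notes name HISAT2 2.0.5, fastp 0.19.7, DESeq2 1.20.0 and featureCounts 1.5.0-p3 but no role for each; the genome build, and whether the strand was used in counting, are not given in the sources used here. Columns were matched to libraries by the library name in the labels. Gene positions that come with the counts differ from those of the GRCr8 promoter windows. Wnt6 starts at 148194880 with the counts, and its GRCr8 window ends at 83778551. Wnt1 starts at 271611676, and its window ends at 131817557. Gene lengths and levels per kb rest on the annotation of the counts. Which assembly or species that annotation describes was not tested.

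All genes were fitted together with edgeR 4.0.16 (R 4.3.3): TMM factors, filterByExpr (minimum count 10, minimum total 15), a robust quasi-likelihood fit on group alone, and Benjamini-Hochberg adjustment over the 17066 genes tested, called below 0.05. CPM is the count divided by the TMM-scaled library size, and values are mean ± SD of 3 libraries. The common biological coefficient of variation was 0.382. Alternatives were DESeq2 1.42.0, limma-voom 3.58.1 with sample weights, other scaling, no filter, a replicate block and leaving out libraries. Leaving out both replicate 2 libraries was chosen after seeing the data.

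The members, lists and tests were chosen with earlier results of these data known. Values in every library are given for the 3 members of highest level per kb in each role, the member of lowest p in each role, and members with an unadjusted p below 0.05 or no overlap between groups; Wnt5a, Wnt5b, Wnt4, Wnt16, Ror1, Sfrp2, Sfrp4, Frzb, Fzd7 and Fzd9 were added after their values were seen. In each pathway list the 2 genes of lowest p are named. Pathway and marker lists were matched to the table by symbol. Same-numbered libraries deviated together, with correlations over all tested genes of 0.253, 0.296 and 0.251 for numbers 1 to 3, which by the rule used marks them as pairs; the labels do not say what a number shares. P-values measure only the spread between these libraries.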

Additional observations from a re-analysis of the deposited data

How the results depend on the processing

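No member was called in any of the 13 alternative fits. The median log2 fold change of the members was -0.19 and ranged from -0.28 to 0.15 when 1 library was left out. It was above 0 in 1 of the 13 alternatives, the fit without Gel+US replicate 2 (0.15). The number of members without overlap was 2. It was between 2 and 12 when 1 library was left out (12 without Gel+US replicate 2), and 17 with both replicate 2 libraries left out. Groups with fewer libraries overlap less often by construction. The share of all genes without overlap was not computed in these fits, so the counts show nothing particular to the members. With the replicate block the median was -0.12 and 0 members were called, so the pairing changed no call. For the 17 members described in most detail, 205 of 221 recomputed log2 fold changes kept their direction and 16 did not. All values of Sfrp5, Rspo2, Rspo3, Wnt10a, Wnt7a, Dkk3, Fzd3, Fzd4 and Fzd10 kept it, between 1.20 and 3.06 for Sfrp5 and between -2.89 and -1.58 for Rspo2. With 1 library left out, the ranges that crossed 0 were -1.09 to 0.046 for Fzd2, -0.091 to 0.30 for Lrp5, -0.78 to 0.15 for Lrp6, -0.14 to 1.50 for Rspo1, -0.27 to 0.20 for Ryk, -0.72 to 1.08 for Sfrp1, -0.29 to 2.19 for Wnt6 and -0.57 to 0.12 for Wnt7b. With both replicate 2 libraries left out, Lrp6 had 0.033 and Ryk -0.10, and limma-voom gave -0.020 for Ryk. The cause was not tested. The 6 members below the filter, Wnt1, Wnt2, Wnt8a, Wnt10b, Dkk1 and Rspo4, had 0 to 14 counts per library. Fitted without the filter, none was called and each interval included 0, from -2.67 to 1.36 for Wnt10b (the narrowest) to -2.68 to 6.41 for Wnt8a (the widest).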
